A study of Mus musculus with 14 samples.

Results

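The genes described here are 10 that act in the assembly of lipoproteins and the absorption of dietary fat: Apob, Mttp, Apobec1, Apoa1, Apoa4, Fabp1, Fabp2, Dgat1, Dgat2 and Mogat2. They were found by gene name and stand among 54378 gene identifiers that both deposited tables share. The set was selected on these data in part, because Apob counts after DSS did not overlap between genotypes, so the values of these genes by genotype after DSS are given as a description with no test.

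RNA-seq had been performed on intestine of WT mice and of mice with a germline deletion of the MiR-29ab1 locus (MiR-29ab1-/-). The deletion is present in every cell, and the locus encodes miR-29a and miR-29b. The labels of the untreated mice give the strain C57BL/6N for both genotypes, and the study's methods give a C57BL/6 background for all mice. Without treatment there were 4 WT and 4 MiR-29ab1-/- mice, and a separate table held 3 WT and 3 MiR-29ab1-/- mice given 3.5% dextran sulfate sodium (DSS), a polymer that injures the colonic epithelium, in drinking water for 3 days. The study's methods give an age of 8 to 12 weeks for its mice in general, which were littermates matched for age and sex unless noted, and the labels give no age for single samples. The labels name the tissue as crypts of the small intestine, whereas the series' design text and the study speak of colon, and headings of the study that cover the DSS libraries speak of colonic stromal cells.

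In the enterocyte, dietary fatty acids and monoglycerides are bound by fatty acid binding proteins, rebuilt into triglyceride by acyltransferases, and loaded onto apolipoprotein B by the microsomal triglyceride transfer protein. The resulting chylomicron leaves through the lymph. The small intestine carries most of this work, and the colon keeps parts of the programme at lower levels.

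Markers of the tissue were examined first. Of genes that mark colonic epithelium, the carbonic anhydrase genes Car1 and Car4 had group means of 2220 to 4910 CPM and of 194 to 568 CPM. The 8 small intestinal genes had a median of 1.36 to 2.64 CPM, with group means of lactase (Lct) at 0.0313 to 0.154 CPM. Other genes of that list were present at moderate levels, with group means of 17.8 to 53.6 CPM for the bile acid transporter Slc10a2, 13.7 to 27.6 CPM for Alpi and 2.09 to 19.7 CPM for Fabp6. The levels of Car1 and Lct go against small intestine in the label. Those of epithelial and smooth muscle genes are those of a preparation rich in epithelium and poor in muscle, before and after DSS. Hepatocyte, adipocyte and smooth muscle markers had medians of 0.342 CPM or less. Albumin (Alb), which the liver makes as it does Apob and Apoa1, had group means of 0.367 to 0.852 CPM, Acta2 of smooth muscle 0.0899 to 0.342 CPM and Adipoq of adipocytes at most 0.0125 CPM. CPM here is the depth-normalised read count after all 14 libraries were scaled together by the trimmed mean of M values. Libraries held 14231157 to 18185020 counts without DSS, all 4 WT libraries being deeper than the 4 MiR-29ab1-/- ones, and 20076719 to 23153149 after DSS. In a single library, 3 reads, taken as the limit that a count of 0 allows, correspond to 0.141 to 0.197 CPM. The mature miRNAs cannot be seen in these libraries, and Mir29a held 0 reads in every library. Mir29b-1 held 2 reads, both in untreated mice labelled MiR-29ab1-/-, and 0 in WT mice, so these counts do not check the deletion.

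The sequences that bear on the comparison are those of the deleted miRNAs and of the site in Apob on which Apobec1 acts. Mature miR-29a-3p lies at chr6:31062673-31062694 and miR-29b-3p at chr6:31063025-31063047, both on the minus strand of GRCm38.p6 (RefSeq). miR-29c-3p, at chr1:195037600-195037621 on the plus strand, is outside the deleted locus and is shown because it has the same seed. Capitals mark the seed, bases 2 to 8.
mmu-miR-29a-3p: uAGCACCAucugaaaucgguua
mmu-miR-29b-3p: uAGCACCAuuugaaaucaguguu
mmu-miR-29c-3p: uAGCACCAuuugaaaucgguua
The same mature miR-29b-3p is also encoded at chr1:195037091-195037113, outside the deleted locus. The complement of the seed, TGGTGCT, was searched on the sense strand in 3' UTRs of at least 50 bases in GENCODE vM21. It was found in 0 of the 10 genes, with UTRs from 64 bases in Apoa1 to 1201 in Mttp, and in 2855 of 20538 genes, or 13.9%, overall. These letters are not in these windows, and nothing about the miRNAs' action is drawn from that.

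Apobec1 encodes the cytidine deaminase that edits a single base of the Apob transcript and turns a glutamine codon into a stop, so that the short form of the protein is made. The 30 bases around it are shown because Apob and Apobec1 are both among the genes described. They lie at chr12:8008048-8008077 on the plus strand (GRCm38, GENCODE vM21), in exon 26 of 29, an exon of 7467 bases. Capitals mark the edited codon, codon 2179 of 4505, and its first base is at position 8008054.
Apob edited site: gcgataCAAtttgatcagtatattaaagat
Gene counts do not distinguish edited from unedited transcripts, and editing was not measured here.

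Promoters, from 250 bases before to 50 after the RefSeq start, were matched for 7 of the 10 genes. Those of Apob and Fabp2 are shown, since both genes had higher counts after DSS. The Apob window is chr12:7977427-7977726 and that of Fabp2 chr3:122894822-122895121, both on the plus strand of GRCm38.p6. Capitals mark TATAAA, which was searched on both strands.
Apob promoter: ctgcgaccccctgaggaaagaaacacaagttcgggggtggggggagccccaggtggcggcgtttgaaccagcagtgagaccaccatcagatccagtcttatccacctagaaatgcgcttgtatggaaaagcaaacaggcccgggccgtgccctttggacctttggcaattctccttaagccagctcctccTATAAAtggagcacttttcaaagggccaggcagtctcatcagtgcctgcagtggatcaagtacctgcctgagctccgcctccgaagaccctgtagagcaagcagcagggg
Fabp2 promoter: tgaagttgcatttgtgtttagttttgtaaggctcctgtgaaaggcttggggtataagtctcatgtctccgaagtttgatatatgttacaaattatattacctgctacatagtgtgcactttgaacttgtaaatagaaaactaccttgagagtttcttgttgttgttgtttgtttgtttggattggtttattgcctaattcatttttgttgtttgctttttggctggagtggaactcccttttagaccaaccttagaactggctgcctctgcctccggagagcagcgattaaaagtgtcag
The letters were found once in the Apob window, starting 60 bases before the start, and not in that of Fabp2. TATAAA was present in 3 of the 7 windows (Apob, Apobec1 and Fabp1) and in 13.6% of 32851 promoters of the same length. GTTAAT, letters found in sites of the hepatocyte nuclear factor HNF1 and searched on both strands, was present in 1 of the 7, that of Fabp1, against 7.1%. The G and C content was 56.7% in the Apob window and 38.7% in that of Fabp2.

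Per kilobase of transcript, Fabp2, which encodes the intestinal fatty acid binding protein, had by far the highest level of the 10 genes. In WT mice without DSS it stood at 205 ± 43.8 CPM per kb (SD, n = 4), at the 99.1 percentile of 16571 protein-coding genes with reads. Dgat1 followed at 12.3 ± 1.24 CPM per kb, Dgat2 at 9.14 ± 2.36, Apobec1 at 6.86 ± 3.18 and Apob at 4.91 ± 1.27. Dgat1 and Dgat2 differed by more than the SD of either, with overlapping values in single mice (10.8 to 13.5 for Dgat1 and 6.64 to 12.3 for Dgat2). Neighbours further down this middle group differed by less than the larger of their SDs. Mogat2 was at 0.967 ± 0.319 CPM per kb and Mttp at 0.483 ± 0.0829, and Fabp1 and Apoa1 were at 0.347 ± 0.268 and 0.294 ± 0.317, closer to each other than their SDs. Apoa4 had 4 reads in the whole series. Apob is a transcript of 13934 bases, so its 68.4 ± 17.7 CPM in these WT mice come to a modest level per length.

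**Figure D1:**
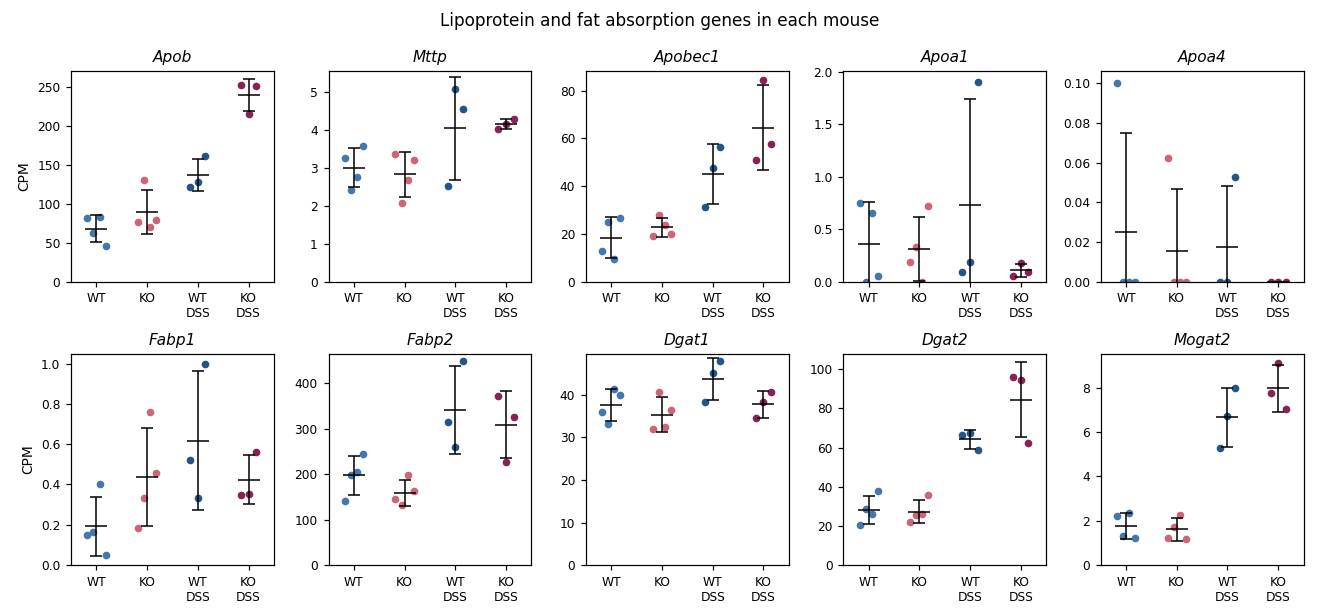
CPM of each of the 10 genes (vertical axis, linear, from 0) in each mouse by genotype (KO, MiR-29ab1-/-) and treatment; points are mice, horizontal marks means and bars SD, with n = 4 without DSS and n = 3 after DSS. In the Apob panel the 3 MiR-29ab1-/- mice after DSS sit at 216 to 252 CPM, above the 3 WT mice at 122 to 161 CPM.

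The comparison of genotypes without DSS asks whether loss of the miRNAs alters these genes in unchallenged intestine. The choice named the Apob values after DSS and not this comparison, but the genes were chosen with earlier results of these data known. No gene of the set passed the test. After the filter on low counts, 7 of the 10 were in the fit, Apoa1, Apoa4 and Fabp1 being too low. By edgeR's quasi-likelihood test with Benjamini-Hochberg adjustment over 15441 genes, 0 of the 7 passed, and 0 had an unadjusted p under 0.05. Without WT mouse 1, and again without MiR-29ab1-/- mouse 3, 1 of the 7 had one. DESeq2 called 0 as well. Over all genes 0.0194% were called, 3 genes, and 3.67% had an unadjusted p under 0.05. The p-values measure only the spread between these samples.

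Apob (ENSMUSG00000020609, chr12:7977648-8016835, plus strand) encodes the structural protein of chylomicrons. Its level was 81.3, 63.2, 83.4 and 45.6 CPM in the WT mice and 76.3, 131, 70.6 and 78.7 CPM in the MiR-29ab1-/- mice. A single MiR-29ab1-/- mouse stood above all others and the genotypes overlapped. The log2 fold change was 0.37 ± 0.25 (SE, adjusted p = 1, edgeR), and without that mouse, MiR-29ab1-/- replicate 2, it was 0.14.

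Mttp (ENSMUSG00000028158, chr3:138089854-138144968, minus strand), whose product transfers lipid onto nascent ApoB, was at 3.25, 2.42, 2.76 and 3.58 CPM in WT mice and at 3.36, 2.06, 2.69 and 3.21 CPM in MiR-29ab1-/- mice. The ranges nearly coincided, and the log2 fold change was -0.10 ± 0.24. Mttp overlaps Trmt10a on the opposite strand by 1521 bases. Trmt10a, which encodes a tRNA methyltransferase, was at 6.18 ± 0.77 CPM in WT and 4.74 ± 0.152 CPM in MiR-29ab1-/- mice (SD, n = 4 each). Whether the counting used strand is not given in the sources used here, so reads of this stretch cannot be assigned with certainty.

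Apobec1 (ENSMUSG00000040613, chr6:122577792-122602444, minus strand) had 12.9, 25, 9.48 and 26.7 CPM in WT mice against 19.2, 28.1, 23.9 and 19.9 CPM in MiR-29ab1-/- mice. WT mice covered the wider range, a pair of them lying below all MiR-29ab1-/- mice, and the log2 fold change was 0.30 ± 0.32, or 0.0855 without WT mouse 3 and 0.52 without WT mouse 4. The WT mice with 26.7 and 25 CPM of Apobec1 were those with the lowest Apob, 45.6 and 63.2 CPM. By contrast, MiR-29ab1-/- mouse 2 had the highest level of both genes among the untreated mice, 28.1 CPM of Apobec1 and 131 CPM of Apob. The log2 ratio of Apobec1 to Apob was -1.97 ± 1.1 (SD, n = 4) in WT and -1.93 ± 0.273 in MiR-29ab1-/- mice (difference 0.03, two-sided exact permutation p = 0.971).

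Fabp2 (ENSMUSG00000023057, chr3:122895072-122899506, plus strand) was at 142, 199, 204 and 245 CPM in WT mice and at 145, 132, 198 and 163 CPM in MiR-29ab1-/- mice. A MiR-29ab1-/- mouse lay below the WT range and the other 3 within it, and the log2 fold change of -0.32 ± 0.17 had the smallest unadjusted p of the 7 genes, 0.091 (adjusted p = 1, edgeR). A span of 2 SE around it runs from 0.636-fold to 1.02-fold. Fabp2 lies wholly within the antisense gene 4933405D12Rik, which had 4 to 19 reads per mouse, against 2330 or more for Fabp2.

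Fabp1 (ENSMUSG00000054422, chr6:71199827-71205023, plus strand), the fatty acid binding protein of liver and proximal intestine, had 3, 3, 8 and 1 reads in WT mice and 3, 6, 13 and 7 reads in MiR-29ab1-/- mice. These counts are close to the limit of detection. The log2 ratio of Fabp1 to Fabp2 was -9.47 ± 0.831 in WT and -8.3 ± 0.467 in MiR-29ab1-/- mice, a difference of 1.17 that did not pass the two-sided exact permutation test (p = 0.0571, adjusted p = 0.229 over 4 ratios, smallest possible p = 0.0286).

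The acyltransferases overlapped between genotypes. Dgat1 (ENSMUSG00000022555, chr15:76502015-76511953, minus strand), which completes triglyceride synthesis from diglyceride, was at 35.9, 33.1, 41.4 and 40 CPM in WT mice and at 31.9, 40.7, 32.4 and 36.5 CPM in MiR-29ab1-/- mice. Dgat2 (ENSMUSG00000030747, chr7:99153658-99182719, minus strand), an unrelated enzyme for the same step, was at 20.5, 28.5, 25.9 and 37.8 CPM against 22, 25.5, 26.1 and 35.8 CPM. Mogat2 (ENSMUSG00000052396, chr7:99219084-99238619, minus strand), which makes diglyceride from absorbed monoglyceride, was at 2.2, 1.32, 2.36 and 1.23 CPM against 1.24, 1.73, 2.28 and 1.18 CPM. In each case the range of one genotype covered most of the other. The log2 fold changes were -0.10 ± 0.11, -0.05 ± 0.2 and -0.15 ± 0.34, and 2 SE around them span 0.801-fold to 1.09-fold, 0.736-fold to 1.27-fold and 0.564-fold to 1.44-fold. The ratio of Dgat2 to Dgat1 differed by 0.06 log2 between genotypes (exact permutation p = 0.743, adjusted p = 0.971), and that of Mttp to Apob by -0.47 (p = 0.514, adjusted p = 0.971, exact).

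Apoa1 (ENSMUSG00000032083, chr9:46228580-46230466, plus strand) and Apoa4 (ENSMUSG00000032080, chr9:46240696-46243459, plus strand), apolipoproteins of high density lipoprotein and chylomicrons, were near 0. Apoa1 had 15, 0, 13 and 1 reads in WT mice and 3, 6, 0 and 11 reads in MiR-29ab1-/- mice. Apoa4 had 2 reads in WT mouse 1 and 1 read in MiR-29ab1-/- mouse 1, and 0 in the other 6 mice, which allows at most 0.197 CPM in any of them.

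The wider pathway without DSS was examined in 8 lists with 87 genes, of which 76 were in the fit. None of the 76 was called in either direction (0 by edgeR), and the median log2 fold change was -0.0078, beside -0.0016 over all 15441 genes. At an unadjusted p under 0.05 there were 1 higher and 4 lower, beside 3.67% of all genes in both directions. Apoh, a plasma glycoprotein that binds phospholipid, was at 1.68 ± 1.08 CPM in MiR-29ab1-/- and 0.447 ± 0.145 CPM in WT mice. Pparg, a nuclear receptor of lipid metabolism, was at 58.2 ± 3.93 CPM against 71.8 ± 5.61 CPM. The glycerol phosphate acyltransferase Gpat3 was at 4.42 ± 1.56 CPM against 7.45 ± 1.01 CPM, the acyl-CoA synthetase and transporter Slc27a4 at 71.1 ± 6.78 against 83.2 ± 6.42 CPM, and the acyl-CoA binding protein Acbd5 at 51.7 ± 4.56 against 59.7 ± 2.58 CPM (all SD, n = 4). The other genes named by the smallest p of their list were Pla2g12b (-0.41 ± 0.32 log2, SE) and Vmp1 (-0.13 ± 0.15) for ApoB particles, A1cf (0.29 ± 0.18) and Hnrnpab (-0.06 ± 0.11) for editing, and Lipa (-0.19 ± 0.15) and Fitm2 (-0.11 ± 0.12) for lipid droplets. Gpat4 was at -0.12 ± 0.11, Apoe at -0.13 ± 0.22, the sterol transporters Npc1l1 and Abcg5 at 1.10 ± 0.67 and 0.82 ± 0.67, and Prdm1 at 0.56 ± 0.26. All of these had an adjusted p of 1.

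After DSS, Apob was the only gene of the 10 whose genotypes did not overlap, which is the pattern it was chosen for. Its level was 122, 128 and 161 CPM in WT mice and 252, 216 and 251 CPM in MiR-29ab1-/- mice, or 2568 to 3044 against 3647 to 5361 reads. Means were 137 ± 21.1 and 240 ± 20.7 CPM (SD, n = 3 each), and the log2 fold change was 0.81 ± 0.13 (SE), or 1.75-fold. The highest WT mouse was at 161 CPM and the lowest MiR-29ab1-/- mouse at 216 CPM. Of 14868 genes of the fit that both tables share, 5.41% did not overlap with all MiR-29ab1-/- mice higher and 6.03% with all lower, and nothing is read from 1 gene of 8 beside that share. Leaving out each mouse in turn left the log2 fold change of Apob between 0.73 and 0.95.

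The other genes overlapped between genotypes after DSS. Apobec1 was at 31.4, 47.8 and 56.4 CPM in WT mice and at 51.2, 84.6 and 57.9 CPM in MiR-29ab1-/- mice (log2 fold change 0.51 ± 0.27 SE, and 0.27 to 0.71 with a mouse left out). Only the highest WT mouse reached the range of the MiR-29ab1-/- mice. Dgat2 was at 66.4, 67.7 and 58.8 CPM against 96.3, 94.8 and 62.3 CPM (0.39 ± 0.16), with a single MiR-29ab1-/- mouse among the WT values. Mogat2 was at 5.3, 6.72 and 7.98 CPM against 7.76, 9.12 and 7.03 CPM (0.26 ± 0.22, and 0.11 to 0.41 with a mouse left out). These 3 genes had higher means in MiR-29ab1-/- mice within overlapping ranges.

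Fabp2 was at 316, 261 and 449 CPM in WT mice and at 373, 228 and 326 CPM in MiR-29ab1-/- mice after DSS (-0.15 ± 0.24), and Dgat1 at 38.3, 45.2 and 47.9 against 34.5, 38.3 and 40.8 CPM (-0.21 ± 0.12). Mttp was at 2.51, 5.06 and 4.54 CPM against 4.02, 4.15 and 4.27 CPM (0.04 ± 0.30), and its MiR-29ab1-/- mice all lay inside the WT range. Fabp1 had 11, 7 and 19 reads against 6, 6 and 12 reads (-0.52 ± 0.55, and 0.0111 without WT mouse 3). Apoa1 had 2, 4 and 36 reads against 1, 3 and 2 reads, so that its higher WT mean came from a single mouse. Apoa4 had 1 read in 1 WT mouse and 0 in the MiR-29ab1-/- mice.

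**Figure D2:**
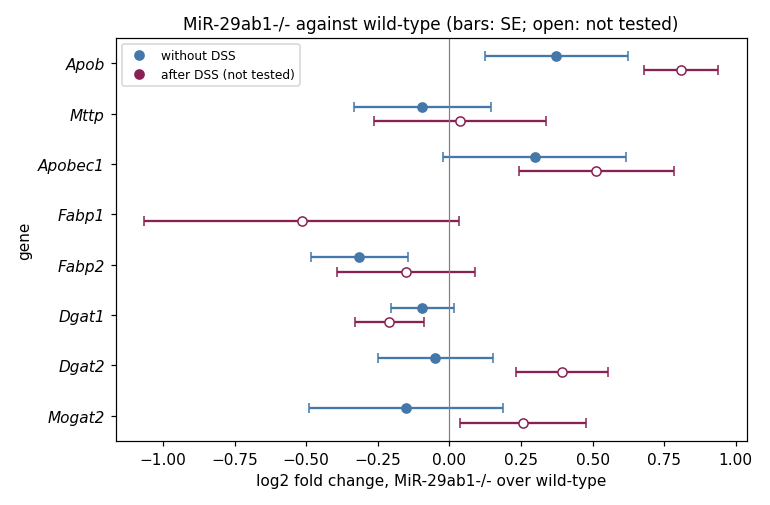
Log2 fold change of MiR-29ab1-/- over WT mice (horizontal axis) with its SE, for each gene in the fit, without DSS (filled, 4 mice per genotype) and after DSS (open, 3 mice per genotype, not tested). Apob lies at 0.37 without and 0.81 after DSS, and the other values after DSS range from -0.52 for Fabp1 to 0.51 for Apobec1.

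Some properties of the libraries were set beside the Apob values after DSS. Epithelial genes (Epcam, Cdh1, Krt8, Krt18, Krt19 and Vil1) summed to 18500 to 20400 CPM in WT and 19100 to 22600 CPM in MiR-29ab1-/- mice, so the ranges overlapped. In log2 CPM relative to the mean of those 6 genes, Apob was at -4.08, -4.12 and -3.80 in WT mice and at -3.21, -3.46 and -3.08 in MiR-29ab1-/- mice. Summed small intestinal markers were 73.1 to 95.8 CPM in WT and 103 to 108 CPM in MiR-29ab1-/- mice. Of the 8 genes, 2 had the higher mean in MiR-29ab1-/- mice, Slc10a2 at 53.6 against 39 CPM and Fabp6 at 19.7 against 10.2 CPM, and the other 6 the lower one. Leukocyte markers were 38.1 to 74.8 and 48.2 to 106 CPM, with Itgam of myeloid cells at 2.32 to 2.56 and 3.03 to 4.09 CPM. The other leukocyte genes overlapped between genotypes. Ptprc, Cd3e, Lyz2 and Adgre1 had the higher mean in MiR-29ab1-/- mice, and Cd79a the lower one, 0.485 against 0.859 CPM. Hepatocyte markers summed to 10.2 to 25.3 and 6.59 to 14.3 CPM, most of it Ttr, against a mean of 137 CPM or more for Apob. Crypt base and cycling markers summed to 229 to 270 CPM in WT and 137 to 241 CPM in MiR-29ab1-/- mice. Among them Ascl2 did not overlap, at 2.7 to 6.29 against 0.118 to 2.2 CPM, and Axin2 was at 12 to 16.7 against 2.19 to 14.3 CPM. Mitochondrial reads were 6.15% to 8.81% in WT and 7.43% to 20.2% in MiR-29ab1-/- mice, and the library with 20.2% had the lowest Apob of its group, 216 CPM. Without that mouse the log2 fold change was 0.87. The 1203 other coding genes of at least 10000 bases in the fit had a median log2 fold change of -0.02. Since Apob was chosen for its values in this comparison, its place among them is not read, and the part of transcript length was not tested. Without DSS the median of 1260 genes of that length was 0.035, beside -0.0016 over all genes, with 781 above 0. For DSS against no DSS it was -0.28 in WT and -0.33 in MiR-29ab1-/- mice. The part of the summed small intestinal markers, of Itgam and of Ascl2, which like Apob did not overlap between genotypes, was not tested. In bulk tissue, more cells of a type and more RNA per cell cannot be told apart.

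In the lists of pathway genes after DSS, 77 of 87 were in the fit and had a median log2 fold change of -0.018, beside -0.0051 over all 14908 genes tested. Among genes for folding and export of ApoB particles, Pla2g12b was at 7.84 ± 0.604 CPM in MiR-29ab1-/- and 4.98 ± 1.41 CPM in WT mice (SD, n = 3 each), and Cideb at means of 18 against 13.7 CPM, a log2 difference of 0.39 ± 0.13 (SE). The sterol exporter subunit Abcg5 was at 11.3 ± 3 against 4.8 ± 1.34 CPM, and the lipoprotein receptor Scarb1 at 15.9 ± 5.2 against 23.9 ± 1.25 CPM. The acyl-CoA synthetases Acsl3 and Acsl1 had lower means in MiR-29ab1-/- mice, at 101 ± 13.2 against 136 ± 19.9 CPM and 15.8 ± 3.86 against 22.4 ± 0.836 CPM. Of lipid droplet genes, Fitm2 was at 14.6 ± 2.53 against 20.1 ± 2.04 CPM and the monoglyceride lipase Mgll at 57.7 ± 9.08 against 46.3 ± 0.83 CPM. The transcription factors Hnf4g and Nr1h4 were at 33.3 ± 5.17 against 24.5 ± 1.98 CPM and 168 ± 27.2 against 123 ± 16.3 CPM. The remaining genes of smallest p in their list were Gpat4 (-0.19 ± 0.09 log2, SE), Agpat2 (0.22 ± 0.10), Celf2 (0.52 ± 0.28), Khsrp (-0.13 ± 0.10), Apoe (-0.41 ± 0.34) and Apoa2 (-0.24 ± 0.40). Differences thus lay in both directions. Like the values of the 10 genes in this comparison, these are given with no test, and the p served only to choose which genes are named.

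The most similar genes to Apob in their pattern across the 8 mice without DSS were sought among 9606 genes of at least 10 CPM, by the root mean square distance of log2 CPM scaled to unit SD in each gene. The nearest were Ranbp10 at 0.252, Rnf214 at 0.255, Erc1 at 0.312, Celsr2 at 0.325 and Fryl at 0.338. These transcripts were 6313, 5939, 16271, 11513 and 15192 bases long. The nearest 10 were 5101 to 22102 bases long, with a median of 13352.5 bases, beside 13934 for Apob and a median of 4625.5 over the 9606 genes. Dgat1 ranked 2928, Apobec1 5692, Dgat2 7867 and Fabp2 9285 of the 9606.

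The comparison of DSS with no DSS within each genotype asks how these genes stand in injured against untreated intestine. The treated mice came in a separate experiment and table, so treatment and experiment cannot be told apart. A single fit over 14 mice and 16370 genes was used, in which Apoa4 and Fabp1 were too low, and Apob was given no test since its values after DSS chose it. Of the 7 genes tested, Apobec1, Fabp2, Dgat2 and Mogat2 rose in WT mice and likewise in MiR-29ab1-/- mice, and 0 fell in either (edgeR, adjusted p under 0.05). In WT mice 20.2% of all genes rose and 18.1% fell. In MiR-29ab1-/- mice 23.2% rose and 22.7% fell. The untreated and treated mice of a genotype are not shared between both comparisons, and the difference between genotypes in the response was not tested.

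Mogat2 had the largest rise of the 7 genes tested. From 1.23 to 2.36 CPM in untreated WT mice it stood at 5.3, 6.72 and 7.98 CPM after DSS (3.74-fold, log2 1.90 ± 0.28 SE, adjusted p = 0.00016, edgeR). In MiR-29ab1-/- mice it went from 1.18 to 2.28 CPM to 7.76, 9.12 and 7.03 CPM (4.95-fold, log2 2.31 ± 0.29, adjusted p = 2.2e-05). Every treated mouse lay above every untreated mouse. Reads were 18 to 47 per untreated and 112 to 154 per treated mouse, and the antisense gene Gm45012 that overlaps Mogat2 had at most 2 reads.

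Dgat2 rose from 28.2 ± 7.26 to 64.3 ± 4.82 CPM in WT mice (2.27-fold, adjusted p = 0.00065) and from 27.3 ± 5.89 to 84.5 ± 19.2 CPM in MiR-29ab1-/- mice (3.11-fold, adjusted p = 3.6e-05, edgeR). The lowest treated mouse, a WT mouse with 58.8 CPM, was above the highest untreated mouse at 37.8 CPM. Dgat1 did not pass the test. It stood at 37.6 ± 3.8 and 43.8 ± 4.97 CPM in WT mice (1.16-fold, 2 SE from 0.984 to 1.37, adjusted p = 0.17) and at 35.4 ± 4.08 and 37.9 ± 3.15 CPM in MiR-29ab1-/- mice (1.08-fold, 2 SE from 0.91 to 1.27, adjusted p = 0.5). The log2 ratio of Dgat2 to Dgat1 had means of -0.44 in WT and -0.39 in MiR-29ab1-/- mice without DSS and of 0.56 and 1.13 after DSS.

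Apobec1 rose from 18.5 ± 8.6 to 45.2 ± 12.7 CPM in WT mice (2.43-fold, log2 1.28 ± 0.34, adjusted p = 0.011) and from 22.8 ± 4.1 to 64.6 ± 17.7 CPM in MiR-29ab1-/- mice (2.85-fold, log2 1.51 ± 0.34, adjusted p = 0.0034, edgeR). Fabp2 rose from 198 ± 42.3 to 342 ± 96.4 CPM (1.73-fold, log2 0.79 ± 0.22, adjusted p = 0.013) and from 160 ± 28.4 to 309 ± 73.6 CPM (1.95-fold, log2 0.96 ± 0.22, adjusted p = 0.0032). For both genes the treated mice of a genotype did not overlap the untreated ones. Without DSS-treated WT mouse 3, as numbered in the deposited table, Apobec1 was at 1.09 log2 (adjusted p = 0.052) and Fabp2 at 0.54 log2 (adjusted p = 0.084, edgeR) in WT mice, so that 2 genes of the 7 passed the test there.

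Mttp stood at 3.00 ± 0.515 and 4.04 ± 1.35 CPM in WT mice (1.34-fold, adjusted p = 0.22) and at 2.83 ± 0.587 and 4.15 ± 0.121 CPM in MiR-29ab1-/- mice (1.48-fold, adjusted p = 0.094, edgeR). In the MiR-29ab1-/- mice the 3 treated values, 4.02 to 4.27 CPM, lay above the 4 untreated ones, 2.06 to 3.36 CPM. In WT mice the treated range of 2.51 to 5.06 CPM enclosed the upper untreated values, and without treated mouse 1 the log2 fold change went from 0.42 to 0.68 and passed the test. Apoa1, in the fit by a few mice with 10 or more reads, had log2 fold changes of 0.96 ± 1.1 in WT and -1.43 ± 1.5 in MiR-29ab1-/- mice (adjusted p = 0.51 and 0.44), and without treated WT mouse 3 the first became -1.33. Fabp1 had 1 to 13 reads per untreated and 6 to 19 per treated mouse.

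Apob, described with no test, stood at 45.6 to 83.4 CPM in untreated and 122 to 161 CPM in treated WT mice, 2-fold by the fit. In MiR-29ab1-/- mice it stood at 70.6 to 131 CPM and 216 to 252 CPM, 2.7-fold. The highest untreated MiR-29ab1-/- mouse, at 131 CPM, was within the range of the treated WT mice.

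**Figure D3:**
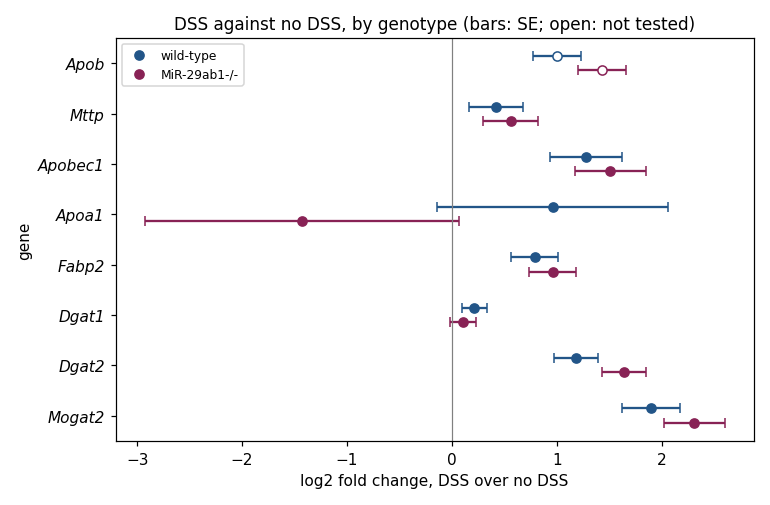
Log2 fold change of DSS over no DSS (horizontal axis) with its SE in WT and MiR-29ab1-/- mice, 3 treated against 4 untreated mice each; the open points of Apob were not tested. Mogat2, at 1.90 and 2.31, lies farthest to the right and Dgat1, at 0.22 and 0.11, nearest to 0 in both genotypes.

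Epithelial genes as a whole moved between the experiments. The 6 general epithelial genes summed to 8730 to 11800 CPM in untreated and 18500 to 22600 CPM in treated mice, with no overlap in either genotype. Crypt base and cycling markers (Lgr5, Ascl2, Axin2, Mki67 and Top2a) summed to 312 to 445 CPM in untreated and 137 to 270 CPM in treated mice. Goblet cell markers summed to 12000 to 26700 CPM in untreated and 14400 to 24400 CPM in treated mice, but single genes moved far in opposite directions. The mucin gene Muc2 had means of 85.6 and 8160 CPM without and after DSS in WT mice and of 81.4 and 6080 CPM in MiR-29ab1-/- mice, whereas Fcgbp had 13200 and 6230 CPM in WT and 17200 and 5220 CPM in MiR-29ab1-/- mice. Pancreatic acinar markers summed to 42.9 to 152 and 10 to 38.6 CPM, and small intestinal markers to 25.7 to 91.8 and 73.1 to 108 CPM. Most of the pancreatic sum was Clps, with means of 65.4 and 29.5 CPM without and after DSS in WT mice and of 99.1 and 19.6 CPM in MiR-29ab1-/- mice. The other genes of that list had group means of at most 2.18 CPM. Each gene of the set in the fit was therefore also given in log2 CPM relative to the 6 epithelial genes, and the part of the other marker lists was not tested.

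On that scale Fabp2 was level in WT mice, at -2.70 ± 0.23 without and -2.70 ± 0.389 after DSS (difference 0.00, two-sided exact permutation p = 1), and differed by 0.10 in MiR-29ab1-/- mice (exact p = 0.657). In WT mice its mean rise was as large as that of the epithelial genes. Mogat2 was higher by 1.10 in WT mice (exact p = 0.0857, adjusted p = 0.2 over the 7 genes) and by 1.43 in MiR-29ab1-/- mice (exact p = 0.0286, the smallest possible, adjusted p = 0.1). Every treated mouse was above every untreated mouse for Mogat2, at -8.57 to -8.01 after DSS against -10.1 to -8.85 without. Dgat2 was higher by 0.44 and 0.78 (exact p = 0.0857 and 0.0571), and Apobec1 by 0.59 and 0.64 (exact p = 0.171 and 0.0857). Mttp, whose mean CPM was higher after DSS, differed by -0.411 in WT and -0.285 in MiR-29ab1-/- mice on this scale (exact p = 0.257 and 0.343). Apoa1 differed by -0.175 and -1.47 (exact p = 0.971 and 0.143).

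Dgat1 was lower relative to the epithelial genes. It stood at -5.07 ± 0.292 and -5.64 ± 0.0997 in WT mice (difference -0.56, exact p = 0.0571, adjusted p = 0.2) and at -5.17 ± 0.194 and -5.91 ± 0.189 in MiR-29ab1-/- mice (difference -0.74, exact p = 0.0286, adjusted p = 0.1). All treated mice, from -6.07 to -5.54, lay below all untreated ones, from -5.45 to -4.78. No gene passed the adjusted threshold in this test, in which a group of 3 against 4 cannot reach a p below 0.0286. Apob, with no test, was 0.25 higher in WT mice relative to epithelium, and 0.0102 higher without untreated WT mouse 4. In MiR-29ab1-/- mice it was 0.63 higher. Against Epcam alone the differences in WT mice were 0.57 for Apob, 0.32 for Fabp2, 1.42 for Mogat2 and -0.24 for Dgat1. In MiR-29ab1-/- mice they were 0.94 for Apob, 0.41 for Fabp2, 1.75 for Mogat2 and -0.42 for Dgat1. The size of these differences thus depended on the reference genes.

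**Figure D4:**
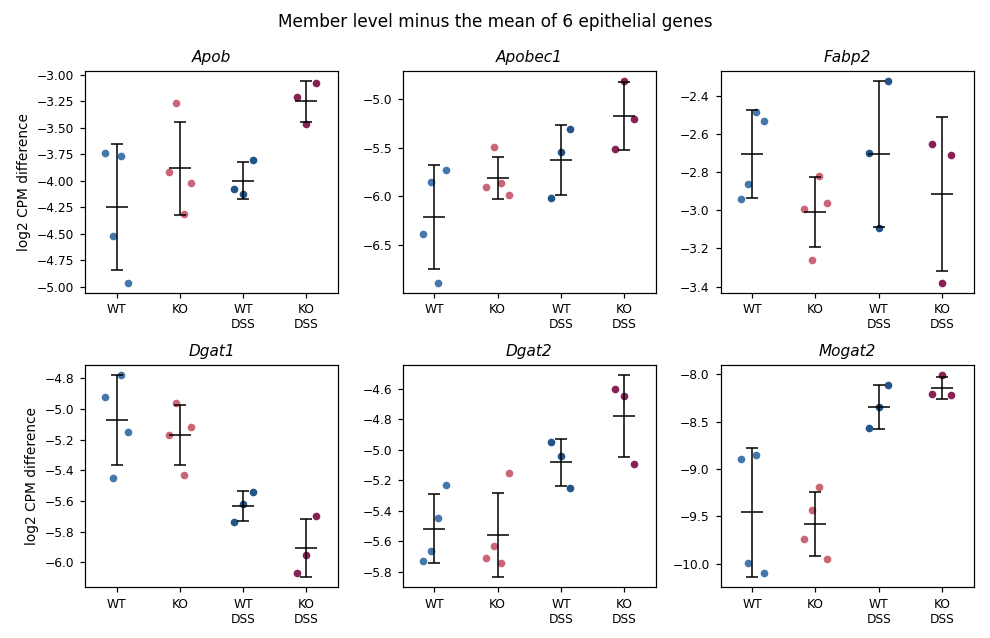
Log2 CPM of 6 genes minus the mean log2 CPM of 6 epithelial genes (vertical axis, each panel on its own scale) in each mouse; points are mice, horizontal marks means and bars SD, n = 4 without DSS and n = 3 after DSS. Mogat2 lies higher and Dgat1 lower in treated than in untreated mice of both genotypes, whereas Fabp2 stays between -3.38 and -2.32 throughout.

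The rest of the pathway was read from the same fits, with 80 of the 87 listed genes tested. After DSS 25 rose and 10 fell in WT mice and 24 rose and 14 fell in MiR-29ab1-/- mice, with medians of 0.16 and 0.10 log2 beside -0.02 and -0.03 over all genes. The counts of each list stand beside shares over all genes of 20.2% higher and 18.1% lower in WT mice and of 23.2% higher and 22.7% lower in MiR-29ab1-/- mice, and several are near them. In the list of lipid droplets and lipases, 7 of 11 tested genes rose in WT and 6 of 11 in MiR-29ab1-/- mice, and 0 fell in either. Plin2, which coats lipid droplets, rose from 60 ± 5.9 to 141 ± 26.7 CPM in WT and from 60.2 ± 6.77 to 148 ± 15.3 CPM in MiR-29ab1-/- mice (adjusted p = 7.7e-06 and 3e-06, edgeR). Plin3, of the same family, rose from 67.3 ± 4.48 to 103 ± 3.44 CPM in WT mice, and lysosomal acid lipase Lipa from 17.1 ± 2.22 to 41.2 ± 1.15 CPM in MiR-29ab1-/- mice. Both also rose in the other genotype, Plin3 by 0.589 log2 in MiR-29ab1-/- mice and Lipa by 0.957 log2 in WT mice (adjusted p = 4.5e-05 and 0.00016, edgeR).

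The glycerol phosphate route, which builds triglyceride without absorbed monoglyceride, was mixed, with 3 of 10 genes higher and 2 lower in each genotype. Gpam, the mitochondrial enzyme of its first step, fell from 49.6 ± 5.35 to 11 ± 0.507 CPM in WT mice and from 54.4 ± 16.4 to 10 ± 0.621 CPM in MiR-29ab1-/- mice (log2 -2.18 ± 0.18 and -2.43 ± 0.19, adjusted p = 5.3e-07 and 1.5e-07, edgeR). Agpat2, of the second step, rose from 72.3 ± 10.4 to 136 ± 2.23 CPM and from 68.9 ± 6.26 to 158 ± 16.4 CPM. Among genes for uptake and activation of fatty acids, 4 of 9 rose and 3 fell in WT mice and 5 rose and 2 fell in MiR-29ab1-/- mice. The acyl-CoA synthetase Acsl1 fell from 42.6 ± 3.58 to 22.4 ± 0.836 CPM in WT mice and from 47 ± 5.29 to 15.8 ± 3.86 CPM in MiR-29ab1-/- mice. The acyl-CoA binding protein Dbi rose from 169 ± 30.1 to 288 ± 32.6 CPM and from 159 ± 26.3 to 336 ± 26.9 CPM.

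Of the 13 genes for folding and export of ApoB particles, 4 rose and 2 fell in each genotype. Mia3, a receptor that loads large cargo at exit sites of the endoplasmic reticulum, fell from 259 ± 30 to 117 ± 15.4 CPM in WT mice and from 257 ± 26.6 to 99.1 ± 14.8 CPM in MiR-29ab1-/- mice. The cargo receptor Lman1 fell from 119 ± 19.5 to 71.2 ± 6.17 CPM in WT mice and from 121 ± 8.2 to 64 ± 10.3 CPM in MiR-29ab1-/- mice (adjusted p = 0.00062 and 7.7e-05, edgeR). Pla2g12b, which is needed for lipid loading of ApoB, rose from 1.73 ± 0.602 to 7.84 ± 0.604 CPM in MiR-29ab1-/- mice (log2 2.18 ± 0.28, adjusted p = 3.1e-05, edgeR). In WT mice it rose from 2.28 ± 0.549 to 4.98 ± 1.41 CPM (log2 1.12 ± 0.28, adjusted p = 0.0055, edgeR).

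Of 6 partners of Apobec1 in editing, 0 rose in either genotype, beside 20.2% and 23.2% of all genes, 1 fell in WT mice and 2 fell in MiR-29ab1-/- mice. Without and after DSS, Khsrp was at 114 ± 6.67 and 91.7 ± 9.44 CPM in WT mice and at 118 ± 10.8 and 83.7 ± 3.77 CPM in MiR-29ab1-/- mice (adjusted p = 0.016 and 0.00087). Syncrip was at 101 ± 4.86 and 87.4 ± 8.99 CPM in WT mice and at 104 ± 1.94 and 86.4 ± 5.3 CPM in MiR-29ab1-/- mice (adjusted p = 0.053 and 0.021, edgeR). For sterol uptake and esterification, 0 of 9 rose, 1 fell in WT and 3 in MiR-29ab1-/- mice. Soat1, which esterifies cholesterol, fell from 77.1 ± 9.52 to 54.6 ± 4.75 CPM and from 73.8 ± 14 to 44.7 ± 4.7 CPM, and the cholesterol exporter Abca1 went from 7.29 ± 2.83 to 2.5 ± 0.754 CPM in MiR-29ab1-/- mice (adjusted p = 0.018) and from 7.87 ± 4.72 to 3.4 ± 0.859 CPM in WT mice (adjusted p = 0.054, edgeR).

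Only 4 of 8 other apolipoproteins were in the fit. Apoe rose from 9.29 ± 2.1 to 19.3 ± 3.32 CPM in WT mice (adjusted p = 0.0092) and from 8.56 ± 2.19 to 14.6 ± 6.93 CPM in MiR-29ab1-/- mice (adjusted p = 0.036, edgeR), and Apoh fell in MiR-29ab1-/- mice from 1.68 ± 1.08 to 0.525 ± 0.205 CPM. Apoa2 was at 0.77 log2 in WT mice (adjusted p = 0.14). Among 18 transcription factors of the pathway, 6 rose and 1 fell in WT mice and 5 rose and 2 fell in MiR-29ab1-/- mice. The bile acid receptor gene Nr1h4 rose from 67.2 ± 5.39 to 123 ± 16.3 CPM in WT mice and from 70.8 ± 7.17 to 168 ± 27.2 CPM in MiR-29ab1-/- mice (adjusted p = 1e-04 and 2.6e-06, edgeR). Srebf1, a regulator of lipid synthesis, fell from 135 ± 17 to 86.9 ± 13.5 CPM in WT mice, and Pparg rose from 58.2 ± 3.93 to 99.9 ± 5.05 CPM in MiR-29ab1-/- mice. In the other genotype each moved the same way, Srebf1 by -0.671 log2 in MiR-29ab1-/- mice and Pparg by 0.494 log2 in WT mice (adjusted p = 0.00052 and 0.0054, edgeR).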

How the data were processed

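Total RNA had been isolated with TRIzol, libraries made with the NEBNext Ultra Directional kit, and reads sequenced by a provider and aligned with HISAT2, with DESeq2 also named in the submitters' processing notes. Versions, genome build, counting tool and use of strand are not given in the sources used here. Coordinates in the tables equal those of GENCODE vM21 (GRCm38). The authors deposited raw counts per gene and FPKM for mice without DSS, and counts after DSS. Another 6 FPKM columns after DSS, and the authors' fold changes and p-values, were not used. Columns after DSS could be tied to a genotype but not to single labelled samples. The study left out a WT and a MiR-29ab1-/- sample, not analysed here.

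Counts were fitted with edgeR 4.0.16 in R 4.3.3 (robust quasi-likelihood, TMM scaling, filterByExpr at 10 reads per library and 15 in total, Benjamini-Hochberg over all genes tested, threshold 0.05). Genotypes were compared within each table, and DSS with no DSS in a joint fit of 14 mice. Fold changes are given with SE. Ratios and levels relative to epithelial genes used log2 CPM (2 reads added as prior) and two-sided exact permutation tests. Alternatives were DESeq2 1.42.0, other scalings, filters and gene sets, limma 3.58.1 on log2(FPKM + 1) and log2(FPKM + 0.1), a prior of 0.5, and leaving out each mouse. The fits were also run on simulated data with the same spread for all genes and a single size of change. That setting differs from these libraries, so nothing about the results here is drawn from it. Library totals of 14231157 to 23153149 set the counting precision, and limits from reads cover counting error only. The study's methods speak of littermates in general, and no label ties single mice to a litter or batch. All 10 genes are named, with the 2 genes of smallest p in each list per comparison and the 5 genes nearest Apob. The genes and lists were chosen with earlier results of these data known.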

Additional observations from a re-analysis of the deposited data

Results flagged for a closer look

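In 20 groups of 4 untreated mice (10 genes in 2 genotypes), 3 held a value whose gap to its neighbour exceeded Dixon's 95% critical share of the group's range, where chance gives about 1 in 20. Apob was at 131 CPM in MiR-29ab1-/- mouse 2, with the other MiR-29ab1-/- mice at 70.6 to 78.7 CPM. Apoa4 was at 0.0999 CPM in WT mouse 1, which is 2 reads, and at 0.0621 CPM in MiR-29ab1-/- mouse 1, which is 1 read, with 0 in the other mice of each group. With 3 values at 0 any single read gives the full gap, so the chance share does not hold for Apoa4.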

How the results depend on the processing

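With 4 or 3 mice a group and 3 reads as the limit of detection, a difference in Apoa4 was not detectable at this depth, and the low counts of Apoa1 and Fabp1 left wide errors. The replicate numbers of untreated mice did not pair the samples (correlations of 0.06, 0.12, -0.28 and 0.04 between same-numbered mice), and with the replicate block 0 genes of the set were called, as without it. After DSS no block was fitted, because the numbers 1 to 3 of the columns are not those of the labels. After DSS in WT mice, 4 genes of the set rose, and 2 to 5 with each mouse left out in turn. Over all genes, counts without DSS were 3 higher and 0 lower, and 0 to 12 and 0 to 11 under the alternatives. After DSS they were 2 higher and 0 lower between genotypes, 0 to 44 and 0 to 15 under the alternatives, and 0 to 54 and 0 to 39 with a mouse left out. Signs changed in values that no test had called. Without DSS, with a mouse left out, log2 fold changes were -0.19 to 0.0384 for Mttp, -0.21 to 0.12 for Dgat2 and -0.36 to 0.0232 for Mogat2, the ratio of Dgat2 to Dgat1 was -0.0641 to 0.18 and that of Apobec1 to Apob -0.35 to 0.43, and levels relative to epithelial genes were -0.26 to 0.0385 for Mttp, -0.22 to 0.0021 for Dgat1, -0.17 to 0.058 for Dgat2 and -0.34 to 0.0636 for Mogat2. After DSS, Apoa1 in WT mice was -1.33 to 1.56, and relative to epithelial genes -1.17 to 0.43, with Fabp2 at -0.19 to 0.20 in WT and -0.0349 to 0.33 in MiR-29ab1-/- mice. Between genotypes after DSS, with a mouse left out, Mttp was -0.22 to 0.23, Fabp1 -0.83 to 0.0111 and Fabp2 -0.32 to 0.10. Relative to epithelial genes, Apob after DSS was 0.0102 to 0.415 in WT mice with a mouse left out. Against Epcam alone, Dgat2 without DSS was 0.0284, Apoa1 after DSS in WT mice 0.15 and Mttp after DSS in MiR-29ab1-/- mice 0.0312. The cause of these shifts was not tested.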
